A study of Sinocyclocheilus angustiporus and Sinocyclocheilus anophthalmus with 4 samples.

Results

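Melanin is the dark pigment of the vertebrate eye, made and stored in melanosomes, organelles related to lysosomes. Tyrosinase starts its synthesis from tyrosine, dopachrome tautomerase and the tyrosinase-related protein TYRP1 act on later intermediates, and the premelanosome protein PMEL forms the fibrils on which the pigment is laid down. Hermansky-Pudlak syndrome proteins work in complexes that carry cargo to the growing melanosome. In the eye, melanin fills the retinal pigment epithelium, which lies against the photoreceptors, and the pigment cells of choroid and iris.

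Genes of this pathway were described in 2 RNA sequencing libraries, 1 from whole eyes of adult Sinocyclocheilus angustiporus, a surface fish, and 1 from whole eyes of adult Sinocyclocheilus anophthalmus, a cavefish. The protocol names 2 individuals per species and does not say how they enter a library, and the brain libraries of both species were not analysed here. The eye libraries are called surface eye and cave eye, and pairs of values give the surface eye first; no strain, genotype or treatment is named in the labels. With 1 library per species no difference has a replicate check, and species, animal and sequencing run cannot be told apart. In a whole eye, fewer cells of a type and less RNA per cell cannot be told apart either. Levels are RPKM, in which reads are divided by transcript length and by library size, so that levels of different genes share a scale. The read numbers themselves are unknown. So are the reference and the transcript lengths used for each species, and their part in differences between the eyes was not tested.

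Rows were chosen by name alone. Of 9649 rows, 9 had a name with tyrosinase, dopachrome, premelanosome, melanosome, oculocutaneous, Hermansky-Pudlak or microphthalmia in it, and no name held the words oculocutaneous or microphthalmia. The 4 synthesis enzyme rows were tyrosinase (tyr), tyrosinase-related protein 1 (tyrp1), tyrosinase-related protein 1b (tyrp1b) and dopachrome tautomerase (dct). The 2 matrix protein rows were premelanosome protein a (pmela) and b (pmelb), and the 2 organelle assembly rows Hermansky-Pudlak syndrome 3 (hps3) and 5 (hps5). The ninth row, D-dopachrome tautomerase (ddt), met the rule through its name, but its product is a relative of the cytokine MIF and is not an enzyme of melanin synthesis. The symbols are those of zebrafish genes with these names. Each name stood on a single row, and the handling of reads shared by near-identical copies is unknown, which bears most on the paired rows tyrp1 and tyrp1b and pmela and pmelb.

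In the cave eye the levels of the 6 enzyme and matrix rows ran from 9.46 RPKM for tyr to 59.45 RPKM for dct. In the surface eye they ran from 4.77 RPKM for tyr to 48.94 RPKM for tyrp1b. Their summed level was 166.3 RPKM in the surface eye and 202.5 RPKM in the cave eye. Of these 6 rows 5 were higher in the cave eye and only tyrp1b was lower, while both hps rows were lower there. Of all 9649 rows, 31.2% were higher in the cave eye and 6634 rows were lower. As given below, tyr is listed only through its cavefish value and hps5 only through its surface fish value.

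**Figure D1:**
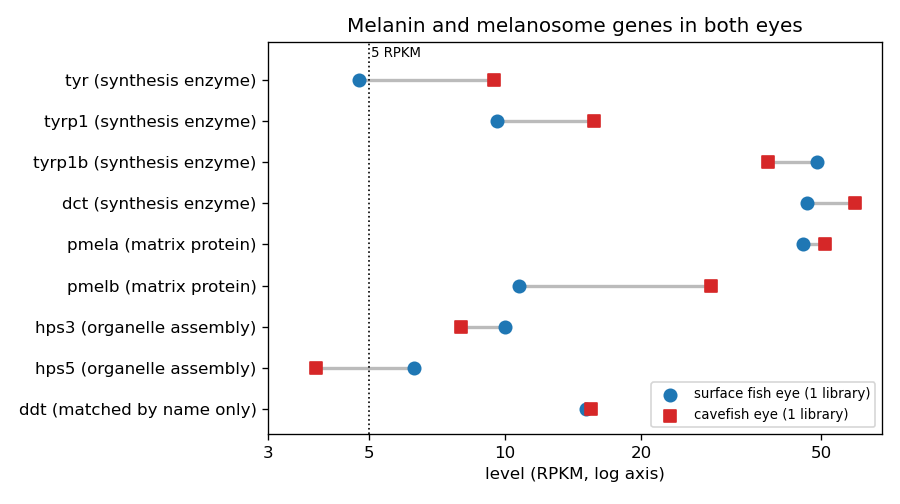
Level in RPKM (log axis) of each of the 9 rows in the surface eye (circles) and the cave eye (squares), 1 library each, with grey lines joining the 2 values of a row. The widest gap is that of pmelb, at 10.75 and 28.53 RPKM; tyr lies under 5 RPKM (dotted line) in the surface eye and hps5 in the cave eye.

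Among the synthesis enzymes, tyr encodes the rate-limiting enzyme, without which no melanin forms. Its level was 4.77 RPKM in the surface eye and 9.46 RPKM in the cave eye, the lowest of the 4 enzyme rows in both. The log2 ratio of cavefish to surface fish, on the scale of RPKM + 1 used for the log2 ratio of each row, was 0.86, within 2-fold. The tables hold a row only if its larger value was 5 RPKM or more, so tyr is listed only through its cavefish value; 620 rows (6.43%) had a surface fish value under 5 RPKM.

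The enzyme dct, which converts dopachrome to a carboxylated indole, stood at 46.54 RPKM in the surface eye and 59.45 RPKM in the cave eye, a log2 ratio of 0.35. It was the most abundant of the 9 rows in the cave eye, where it ranked 690th of 9649 rows by level, against 1202nd in the surface eye. TYRP1 stabilises tyrosinase in mouse melanocytes, and its 2 rows differed in opposite directions. The less abundant tyrp1 stood at 9.61 and 15.75 RPKM in surface fish and cavefish (0.66), and tyrp1b at 48.94 and 38.14 RPKM (-0.35). Summed over both rows, the level was 58.55 and 53.89 RPKM.

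The matrix protein genes were both higher in the cave eye, by unequal amounts. The row pmelb stood at 10.75 RPKM in the surface eye and 28.53 RPKM in the cave eye, a log2 ratio of 1.33 and the only one of the 9 past 2-fold. Its ratio ranked 175th from the top among all 9649 rows. The more abundant pmela stood at 45.68 and 51.14 RPKM (0.16). The summed pmel level was 56.43 RPKM in the surface eye and 79.67 RPKM in the cave eye.

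HPS3 and HPS5 are subunits of BLOC-2, a complex that in mammals directs tubules from endosomes to maturing melanosomes and is also used by other lysosome-related organelles. They were the lowest of the 9 rows in the cave eye, and both were lower there than in the surface eye, within 2-fold. The level of hps3 was 10.01 RPKM in the surface eye and 7.99 RPKM in the cave eye (log2 ratio -0.29), and that of hps5 was 6.31 and 3.83 RPKM (-0.60). With a cavefish value under 5 RPKM, hps5 is listed only through the surface eye. For hps6, which encodes the remaining BLOC-2 subunit, no row was matched. The row ddt was nearly equal in both eyes, at 15.10 and 15.51 RPKM (0.04).

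Set among all rows, the 9 log2 ratios had a median of 0.16, from -0.60 to 1.33, and the median of all rows was -0.27. Of the 9 rows 6 lay above 0, as did 31.2% of all rows. At least 2-fold higher in the cave eye was 1 of the 9, against 3.83% of all rows, and at least 2-fold lower was none, against 10.1% of all rows; so few rows allow no reading of these counts. The negative median of all rows bears on each ratio, and the 2 most abundant rows took up 53.2% of all RPKM in the surface eye and 62.6% in the cave eye. With all ratios centred on their median, tyr came to 1.13, tyrp1 to 0.93 and pmelb to 1.60. On that scale 2 of the 9 were at least 2-fold higher, against 6.71% of all rows, and none lower, against 5.55%. Of these 2, tyr is listed only through its cavefish value. The centred ratio of dct was 0.62 and that of pmela 0.43, and hps3 (-0.02), tyrp1b (-0.08) and hps5 (-0.33) remained below 0. The 4 scalings used, centring included, raised the ratios of all 9 rows, so those above 0 could not change direction. The rows below 0 stayed there, but hps3 (-0.085 to -0.022) and tyrp1b (-0.083 to -0.032) came close to equal levels.

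**Figure D2:**
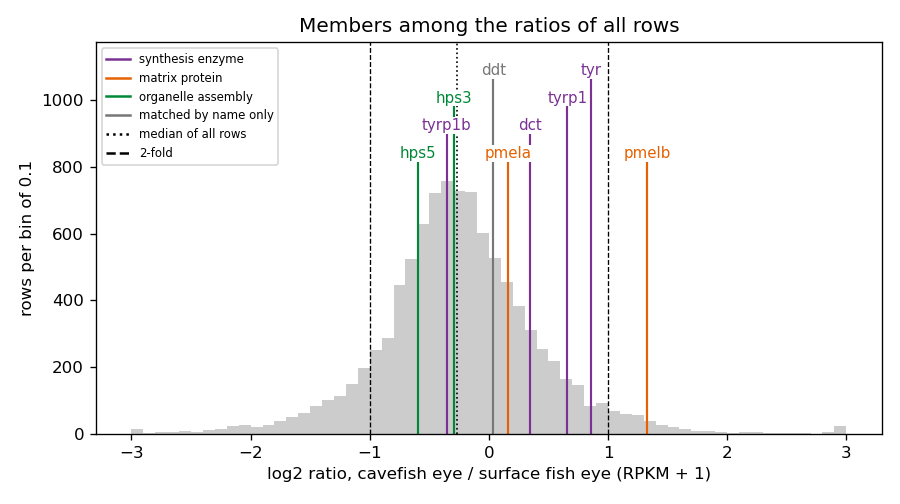
Histogram of the log2 ratio of cavefish to surface eye over all 9649 rows in bins of 0.1 (ratios beyond the axis are gathered in the end bins), with a labelled line for each of the 9 rows, coloured by role. The dotted line is the median of all rows, -0.27; hps3 and tyrp1b lie next to it, and only pmelb lies past the dashed line of 2-fold.

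Ratios between genes of 1 library, here and below, were taken on RPKM without a pseudocount. Such ratios do not depend on the scaling between libraries, and they too differed between the eyes. In the surface eye tyrp1b was 5.09 times as abundant as tyrp1, and in the cave eye 2.42 times. Likewise pmela was 4.25 times as abundant as pmelb in the surface eye and 1.79 times in the cave eye. In both pairs the scarcer row thus made up more of the pair in the cave eye. The handling of reads shared by near-identical copies and the transcript lengths used are unknown, and their part in these shares was not tested. Of the summed RPKM of the 4 enzyme rows, tyrp1b held 44.5% in the surface eye and 31.1% in the cave eye, and dct 42.4% and 48.4%. The share of tyr was 4.34% and 7.70%, and that of tyrp1 8.75% and 12.8%. Thus tyrp1b was the most abundant enzyme row in the surface eye and dct in the cave eye.

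**Figure D3:**
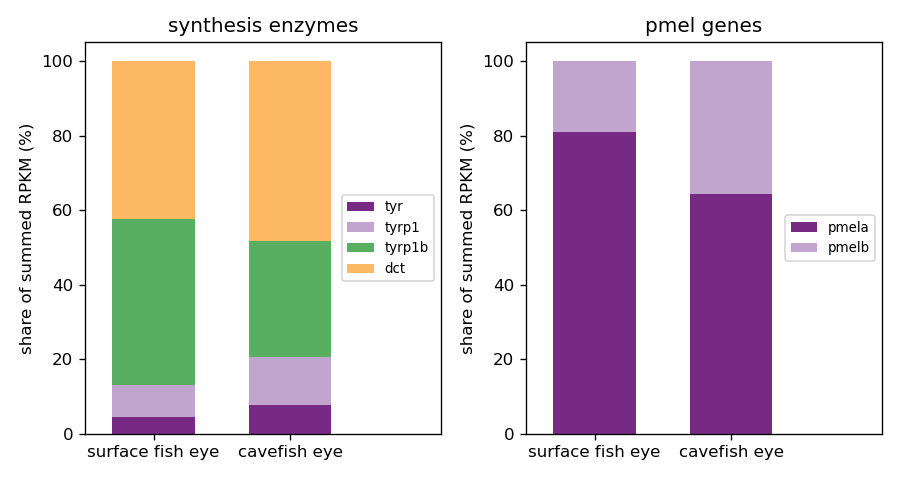
Share of the summed RPKM (percent) held by each synthesis enzyme row (left) and each pmel row (right) in the 2 eye libraries. The share of pmelb was 19.1% in the surface eye and 35.8% in the cave eye, and that of tyrp1b was 44.5% and 31.1%.

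Pigment genes were also set against genes listed as markers of the retinal pigment epithelium, most of them of the visual cycle or transport. Whether each marks this epithelium alone in these eyes was not tested. Rows were matched for 13 of 15 such markers, and their median log2 ratio was -0.23, near that of all rows. The retinoid isomerase gene rpe65a, which marks this epithelium, stood at 207.6 RPKM in the surface eye and 176.9 RPKM in the cave eye, and its ratio was itself the median of the list. Past 2-fold were the retinol dehydrogenase gene rdh5, lower at 15.30 and 7.14 RPKM, and serpinf1, which encodes the secreted factor PEDF, higher at 12.95 and 39.53 RPKM. The marker best1, at 6.46 and 3.32 RPKM, is listed only through its surface fish value, which favours higher ratios to it in the cave eye.

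Relative to rpe65a, pmelb stood at 5.18% in the surface eye and 16.1% in the cave eye, a 3.11-fold higher ratio. The level of tyr was 2.30% and 5.35% of that of rpe65a (2.33-fold), that of tyrp1 4.63% and 8.91% (1.92-fold), and that of dct 22.4% and 33.6%. The level of pmela was 22.01% and 28.9% of that of rpe65a. For tyrp1b the values were 23.6% and 21.6%, and for hps5 3.04% and 2.17%. The choice of reference mattered for the size and the direction of these ratios. That of pmelb ran from 0.87-fold against serpinf1 to 5.69-fold against rdh5, and was above 1 for 12 of 13 references. The same held for tyr (listed only through its cavefish value) and tyrp1, each above 1 for 12 of 13 references. For dct and pmela the count was 10 of 13. For tyrp1b and hps3 it was 6 of 13, and for hps5 (listed only through its surface fish value) 2 of 13. Each count is the place of 1 ratio among 13 marker ratios of the same 2 libraries, and so is not repeated support.

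**Figure D4:**
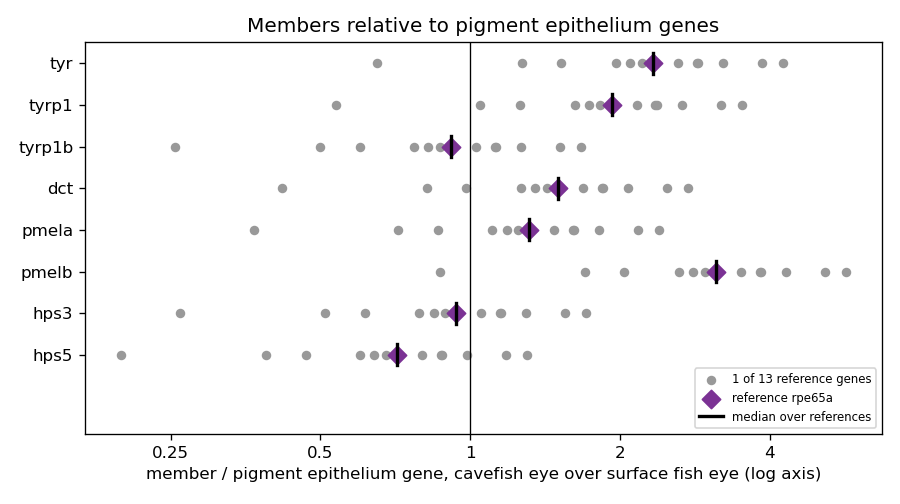
For each pigment gene, its level relative to each of 13 listed pigment epithelium markers in the cave eye divided by the same in the surface eye (log axis). Dots are reference genes, diamonds rpe65a and black bars the median over references. The medians are 3.11 for pmelb and 2.33 for tyr, and lie under 1 for tyrp1b, hps3 and hps5; the lowest dot of each gene is the reference serpinf1.

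The whole eyes also differed in transcripts of other tissues; past 2-fold were 3.83% of all rows in the higher and 10.1% in the lower direction. Of 7 rod genes 6 were at least 2-fold lower in the cave eye, with summed levels of 19642 and 6599 RPKM. All 5 epithelial rows (summed 1005 and 111.0 RPKM) and all 3 erythrocyte rows (1662 and 494.6 RPKM) were at least 2-fold lower. All 4 muscle rows were at least 2-fold higher (574.4 and 1759 RPKM). Of the epithelial rows, epcam (74.07 and 4.46 RPKM) is listed only through the surface eye. All 4 connective tissue rows were above 0, beside 31.2% of all rows. Their median log2 ratio was 0.63, with summed levels of 526.8 and 801.0 RPKM. Of these only lumican (lum), a proteoglycan of cornea and sclera, was past 2-fold, at 27.52 and 61.10 RPKM. Of 6 markers of neural crest pigment cells 3 were matched, with summed levels of 98.03 and 71.03 RPKM. They were sox10, a transcription factor of the neural crest and of glia, at 24.79 and 31.12 RPKM, the receptor gene kita at 20.53 and 13.90 RPKM, and gpnmb, a PMEL-related glycoprotein gene, at 52.71 and 26.01 RPKM. No row was matched for mc1r, ltk or ednrba. The part of the cell makeup of the eyes in the levels of pigment genes was not tested.

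Melanosome membrane proteins set the ion content and acidity of the organelle. Rows were matched for 5 of 11 listed transporter and channel genes, with a median log2 ratio of -0.24, near the -0.27 of all rows. None was past 2-fold, beside 3.83% of all rows higher and 10.1% lower. The receptor gene gpr143, whose loss gives ocular albinism in humans, stood at 10.42 and 14.98 RPKM (0.48). It was the only one of the 5 above 0, beside 31.2% of all rows above 0. The copper transporter gene atp7a, which supplies tyrosinase with its metal, stood at 10.64 and 5.54 RPKM (-0.83), and the exchanger gene slc24a4 at 10.43 and 8.68 RPKM (-0.24). The exchanger gene slc24a5, mutated in the zebrafish golden strain, stood at 8.66 and 5.57 RPKM (-0.56). No row was matched for oca2, which is mutated in albino cave populations of the Mexican tetra, or for slc45a2. In this and the other lists, a gene with no matched row may lie under 5 RPKM in both eyes or carry another name.

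Genes that assemble lysosome-related organelles, to which hps3 and hps5 belong, had a median log2 ratio of -0.28 over 31 rows, next to that of all rows. By 2-fold, 1 was higher and 3 were lower, near the 3.83% and 10.1% of all rows. The higher one was the AP-1 adaptor subunit gene ap1s1 (11.40 and 24.30 RPKM). The lower ones were vps18 of the HOPS tethering complex (10.31 and 4.41 RPKM) and the syntaxin rows stx3 (33.82 and 14.15 RPKM) and stx3a (86.68 and 31.82 RPKM). Of these, vps18 is listed only through its surface fish value. Syntaxin 3 is also the syntaxin of photoreceptor ribbon synapses. The abundant AP-3 subunit gene ap3d1 stood at 82.85 and 81.11 RPKM (-0.03), and the endosomal syntaxin gene stx12 at 40.31 and 25.50 RPKM (-0.64). Listed genes of BLOC-3 (hps1 and hps4) were not matched.

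Melanosome transport genes had a median of -0.30 over 15 rows. Only a row named as RAB11a-like was past 2-fold, at 11.19 and 3.79 RPKM, beside 10.1% of all rows at least 2-fold lower. With a cavefish value under 5 RPKM, this row is listed only through the surface eye. The recycling endosome GTPase gene rab11a stood at 37.33 and 44.19 RPKM (0.24), rab11ba at 33.12 and 26.66 RPKM (-0.30), and rab1a, of transport from the endoplasmic reticulum, at 25.27 and 16.86 RPKM (-0.56). No row was matched for mlph, which links melanosomes to myosin.

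Of 25 listed regulators of pigment cells 12 were matched, with a median of 0.05 and with 1 higher and 1 lower by 2-fold, beside 3.83% and 10.1% of all rows. The receptor tyrosine kinase gene kitb was lower, at 68.59 and 20.68 RPKM (-1.68), and lef1, a transcription factor of Wnt signalling, higher, at 2.79 and 8.78 RPKM (1.37); lef1 is listed only through its cavefish value. The ligand gene kitlga stood at 62.07 and 44.05 RPKM (-0.49). The channel gene trpm1, used by melanocytes and by ON bipolar cells of the retina, stood at 604.0 and 538.8 RPKM (-0.16). Neither mitfa, a master regulator of melanocytes, nor its paralog mitfb was matched.

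Other pigment types were represented by 4 of 17 listed genes of iridophores and xanthophores, with a median of -0.58. All 4 were lower in the cave eye, as were 6634 of all 9649 rows. Only gch2, which starts the synthesis of pteridine pigments in xanthophores, was past 2-fold, at 48.28 and 8.20 RPKM (-2.42). At least 2-fold lower were 10.1% of all rows. The purine synthesis gene paics stood at 27.44 and 16.21 RPKM (-0.72) and the iridophore enzyme gene pnp4a at 11.28 and 8.05 RPKM (-0.44). Iridophores and xanthophores are the reflective and yellow pigment cells of fish.

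Tyrosine, the substrate of tyrosinase, is also used for catecholamines and broken down in liver. Of 15 listed genes of these routes 11 were matched, with a median of 0.04, and 2 were higher and 1 lower by 2-fold, beside 3.83% and 10.1% of all rows. The list holds ddt, whose own ratio is that median. The breakdown enzymes hpda (0.42 and 22.12 RPKM) and hgd (1.52 and 6.35 RPKM) were higher, and both are listed only through the cave eye. The gene ddc, whose enzyme makes dopamine from the DOPA that tyrosinase also uses, was lower at 22.39 and 10.22 RPKM (-1.06). The cofactor recycling gene pcbd1 stood at 15.01 and 28.83 RPKM (0.90), and mif, a relative of ddt, at 38.44 and 28.21 RPKM (-0.43).

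**Figure D5:**
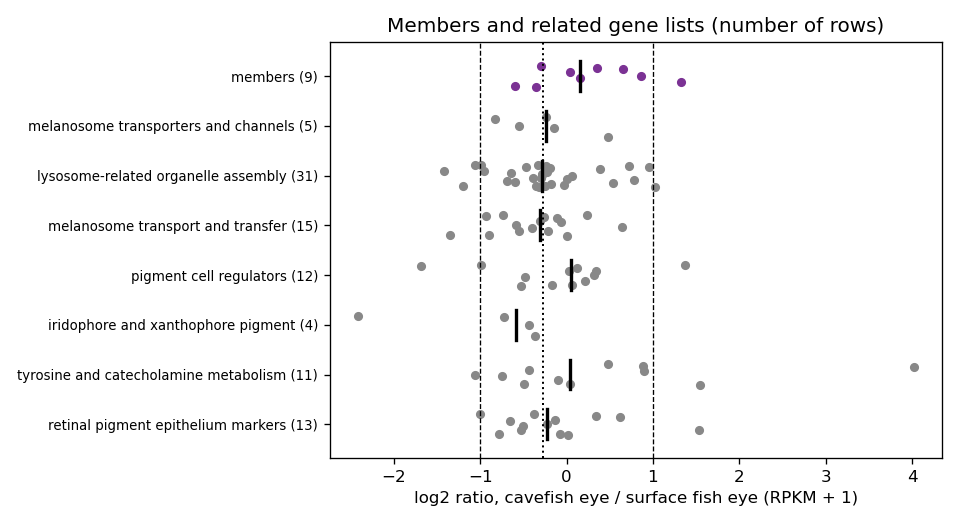
Log2 ratio of cavefish to surface eye for the 9 rows chosen by name (top, purple) and for 7 related gene lists (grey), 1 dot per row, with black bars for medians, a dotted line for the median of all rows (-0.27) and dashed lines for 2-fold. The median of the 9 rows, 0.16, lies to the right of that of each list; the dot at 4.03 is hpda.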

How the data were processed

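The authors deposited RPKM values for 1 eye library of each species, per the file headers. Per the labels' protocols, polyadenylated RNA of whole eyes was sequenced in pairs on either of 2 Illumina instruments, and which library ran on which is not stated. The submitters' processing notes list Bowtie 0.12.2 without a role, and reference, transcript lengths and filters were not given in the sources used here. No row had both values under 5 RPKM. The values are no counts, and the unknown depth allows no counting error.

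Each column was assigned through the fish in its header. For each of 9649 rows, the log2 ratio of cavefish RPKM + 1 to surface fish RPKM + 1 was taken with no filter; the pseudocount understates changes of low values. With 1 library per group no test was possible; rows at 1 or above, or -1 or below, were past 2-fold. Of 9585 names, 64 stood on more than 1 row, and rows were kept apart. Symbols of 6 pathway lists and of marker lists were matched by name, for 76 of 128 pathway symbols. All 9 rows of the name rule were named, and of each pathway list the rows past 2-fold and the 3 with the largest higher value. Genes named beside these were chosen after their values were seen, such as slc24a5. The members and lists were chosen with earlier results of these data known. No sequence was given for these genes, so none is shown. Alternatives were pseudocounts, filters, 4 scalings, thresholds, the treatment of repeated names and the reference gene. Python 3.11.15 was used with pandas 2.3.3, numpy 2.4.6 and matplotlib 3.10.9.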

Additional observations from a re-analysis of the deposited data

How the results depend on the processing

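The log2 ratios of the 9 rows kept their sign under every alternative that gave a value, and pmelb stayed past 2-fold in each (1.09 with a pseudocount of 5, up to 1.61). Pseudocounts, filters and the treatment of repeated names cannot change the sign of these rows. The scalings raised all 9 ratios, so only rows below 0 could have changed sign. The count of rows at least 2-fold higher was 2 in place of 1 with centring on the median, with a trimmed mean scaling, with equal totals without the 50 most abundant rows and with quantile normalization, since tyr came to between 1.10 and 1.13. Of all 9649 rows, 647, 643, 623 and 597 were at least 2-fold higher with these scalings, in that order. The added row, tyr, is listed only through its cavefish value. With a threshold of 1.5-fold 3 of the 9 rows were higher and 1 lower, and with 4-fold 0 were higher. The shares of all rows at these 2 thresholds are not given here, so these counts allow no reading. Filters at 10 RPKM, or at 5 RPKM in both eyes, left out tyr and hps5. Over the 78 rows of the 6 pathway lists, 4 were higher and 7 lower, beside 370 and 974 of all 9649 rows, which came to 647 and 536 when centred. The higher count was 8 with each of the 4 scalings, beside 597 to 647 of all rows. With a pseudocount of 5 the higher count was 1, beside 173 of all rows. The filters at 10 RPKM and at 5 RPKM gave 2 and 1 higher, beside 256 and 179 of all rows kept. The lower count was 4 with each of the 4 scalings, beside 536 to 563 of all rows. With a pseudocount of 5 the lower count was 4, and with one of 0.1 it was 11, beside 517 and 1169 of all rows. The median over the lists, -0.26, was 0.014 when centred and 0.0031 with the trimmed mean. That of the transporters became 0.030, 0.023 and, with equal totals, 0.00885, and that of tyrosine metabolism -0.033 with the filter at 10 RPKM and -0.27 with that at 5 RPKM. The median log2 change of the 8 pigment genes relative to rpe65a was 0.49 on RPKM without a pseudocount and 0.48 on RPKM + 1. Without a pseudocount it was -0.39 against rlbp1a, -0.12 against lratb, -1.35 against serpinf1, 1.36 against rdh5 and 1.22 against best1. Of these references, best1 is listed only through its surface fish value. Scalings shift all rows by construction; the cause of the other changes was not tested. No paired analysis was possible because each group has 1 library, for which reason none could be left out.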

Other observations

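Subunits of the AP-1 adaptor, which sorts cargo towards melanosomes in mammals, differed in both directions; they were chosen after their values were seen. The medium chain gene ap1m2, an epithelial form in mammals, stood at 12.27 RPKM in the surface eye and 24.80 RPKM in the cave eye (log2 ratio of RPKM + 1, 0.96). The large chain genes ap1b1 (23.44 and 11.27 RPKM, -0.99) and ap1g1 (20.51 and 12.38 RPKM, -0.68) were lower in the cave eye. On the scale of RPKM + 1 these 3 rows lie within 2-fold, while the RPKM of ap1m2 and ap1b1 without a pseudocount differ by 2.02-fold and 2.08-fold. Of the other listed AP-1 rows, the log2 ratio of RPKM + 1 was 1.03 for ap1s1, 0.38 for ap1s2, -0.28 for ap1s2-like and -0.39 for ap1m1.

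The GTPases RAB32 and RAB38, which bring tyrosinase and TYRP1 to melanosomes in mouse, had low levels in both eyes. The row rab32a stood at 3.73 and 6.80 RPKM (0.72) and rab38 at 8.47 and 8.52 RPKM (0.01). With a surface fish value under 5 RPKM, rab32a is listed only through the cave eye, as tyr is.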
